A study of Mus musculus with 11 samples.

Results

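The noncoding genes examined here are the 269 genes of a deposited table of 4461 mouse genes whose annotated type is neither protein coding nor a pseudogene and which lie off chromosomes X and Y. By annotated type, 131 were long intergenic noncoding RNA (lincRNA) genes, 74 were antisense genes and 51 were processed transcripts, meaning spliced RNAs without an open reading frame. A further 8 were sense intronic, 1 was sense overlapping and 4 were gene segments of the T-cell receptor on chromosome 14, which the same rule admitted although they are not long noncoding RNA genes. In the GENCODE M21 annotation, 6 of the 269 are protein coding and 9 are not included. The RNA came from untreated cell lines that were each grown from a mammary tumor of a female MMTV-NIC mouse on the FVB/N background, a model in which the MMTV promoter drives activated ErbB2 and Cre recombinase from 1 transcript. Lines KO_4258, KO_2768, KO_1925 and KO_1922 (NIC/Cpt1a L/L, called KO lines below) carried conditional alleles of Cpt1a, the enzyme that admits long-chain fatty acids to mitochondria for oxidation. Lines WT_8905 and WT_5257 (NIC/Cpt1a+/+, called WT lines) did not, and NIC was common to both genotypes. Each line had 2 libraries, except KO_2768 with 1, giving 7 KO and 4 WT libraries. The genotype field of the labels was followed, since the wording of the titles gives the opposite allele status, and Cpt1a itself was not among the listed genes and was not analysed here.

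Long noncoding RNAs work as RNA, as scaffolds of nuclear bodies, as precursors from which smaller RNAs are cut, or through the act of transcription over a neighbouring gene. Small nucleolar RNA (snoRNA) host genes carry in their introns the guides that direct chemical modification of ribosomal RNA, and their spliced exons often have no known protein product. MicroRNA host genes carry hairpins that are processed to short RNAs that repress messenger RNAs. Antisense and divergent noncoding genes share a locus, and often a promoter region, with a protein-coding gene.

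The recovered library totals ranged from 18247312 to 25386785 reads in KO libraries and from 15199378 to 17372643 in WT libraries, and reads of the noncoding genes made up 0.811% to 1.86% of the reads of listed genes. Every listed gene had been selected by the authors as different between genotypes in these same libraries, so separation of the genotypes is in part a property of the table. Of markers of the labelled tissue, 0 of 5 luminal genes and 1 of 5 basal genes were listed, so the epithelial label could not be checked. The listed basal and fibroblast markers, Acta2, Col1a2 and Pdgfrb, differed among lines. Col1a2 and Pdgfrb summed to 0 to 390 normalised reads in KO lines and 0 to 1.72 in WT lines, and their part in the results below was not tested. In cell populations, fewer cells of a type and less RNA per cell cannot be told apart.

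The noncoding genes were weakly expressed. Their median level was 0.66 FPKM (fragments per kilobase of gene length, scaled to library depth), against 8.86 FPKM for the 3938 listed protein-coding genes off X and Y, and 106 of the 269 (39.4%) had a mean of 1 FPKM or more, against 79.4% of those protein-coding genes. They were also shorter, with a median gene length of 1655 bases against 3172.

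Mean normalised read counts (reads divided by the size factor of the line) were higher in KO lines for 155 noncoding genes and lower for 114. All 4 KO lines lay above both WT lines for 103 of the 269, where the share over all listed genes was 40.7%, and all 4 lay below both for 103, where it was 34.3%. The remaining 63 overlapped. Of the 155 genes with a higher KO mean, 50 had 3 KO lines above both WT lines, and in these the line left behind was KO_2768 in 25 and KO_4258 in 18. Over all listed genes of that pattern (772), it was KO_2768 in 232 and KO_4258 in 457. With cell lines as replicates, edgeR's quasi-likelihood test called 0 of the 231 noncoding genes that passed the low-count filter, as it called 0% of all 4273 tested genes, and the smallest adjusted p was 0.21 among noncoding genes and 0.12 overall. At an unadjusted p under 0.05 there were 59 higher (25.5%) and 46 lower (19.9%) noncoding genes, beside 26.3% and 21.5% of all tested genes. This balance depended on the scaling, since TMM factors gave 44 higher and 72 lower noncoding genes and median-of-ratios factors 44 and 75. Over all tested genes these scalings gave 786 higher and 1452 lower, and 762 and 1522, so the shift was not particular to the noncoding genes. With adjustment over the listed genes alone, 0 noncoding genes passed as higher and 2 as lower, beside 1.33% and 1.92% of all tested genes. DESeq2's Wald test called 22 higher and 13 lower noncoding genes, beside 15.1% and 8.57% of all tested genes. The noncoding genes therefore passed at shares near or under those of the table in each of these counts. The median log2 fold change (KO over WT) of the tested noncoding genes was 1.10, against 0.60 for all tested genes. With the genes at or under 3 reads per library in one genotype set to their bound, it was 0.86 against 0.58. The share with a higher KO mean was 57.6% of the 269 and 58.8% of all listed genes. Their median normalised read counts were 14.8 and 456.6. Whether the authors' selection widened the fold changes of weak genes was not tested.

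The annotated types had unlike shares of higher and lower genes. Among the 74 antisense genes, all 4 KO lines lay below both WT lines for 38 (51.4%) and above for 18 (24.3%), and the median log2 fold change of the 57 tested was -0.81. Among the 131 lincRNA genes, 61 (46.6%) lay above and 44 (33.6%) below, and the median of the 116 tested was 1.46, or 1.10 with genes at the floor set to their bound. The 51 processed transcripts had 21 above and 16 below, and the 8 sense intronic genes had 2 above and 5 below. These shares describe the listed genes and were not tested between types.

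**Figure D1:**
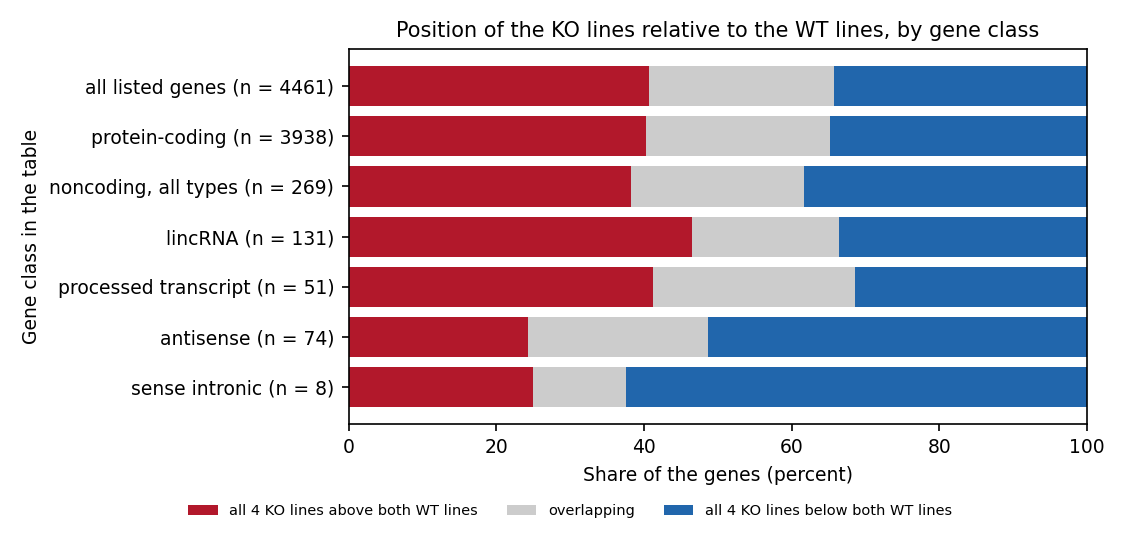
Each bar divides the genes of one class in the table (number in brackets) by the position of the 4 KO lines relative to the 2 WT lines, as a percent of the class on the horizontal axis. Antisense genes show a larger share with all KO lines below (51.4%) than lincRNA genes (33.6%) or all listed genes (34.3%).

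The snoRNA host genes in the table lay higher in every KO line. By position in the GENCODE M21 annotation (GRCm38), 9 of the 269 genes contain a snoRNA on the same strand, and for 9 of the 9 all 4 KO lines lay above both WT lines, under the authors' size factors and under 3 other scalings, where the share over all listed genes was 40.7%. At an unadjusted p under 0.05 by edgeR 7 of the 9 were higher (26.3% of all tested genes) and 0 passed the adjustment. DESeq2 called 2 (Gas5 and Snhg1), or 22.2%, beside 15.1% of all tested genes. Their median level was 21.2 FPKM and their median log2 fold change 1.10. Snhg5, 9430037G07Rik and 9330159M07Rik start near each other on the minus strand of chromosome 9, at 88522897, 88599243 and 88858801. Some of the 9 genes therefore lie in the same region of a chromosome, and whether these vary independently was not tested. A list of 19 known snoRNA host genes had 5 members in the table, all 5 among these 9. The other genes of that list were not among the selected genes, so their levels are unknown here.

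Gas5, growth arrest-specific 5 (chr1:161034422-161038539, plus strand), contains 10 annotated snoRNAs including Snord47 and Snord78. Its normalised read count was 2934 in KO_1922, 3179 in KO_1925, 3100.1 in KO_2768 and 4888 in KO_4258, and 1440.0 in WT_5257 and 1839 in WT_8905, and values of other genes follow the same order. Line KO_4258 stood highest and the genotypes did not overlap, with a log2 fold change of 1.10 (SE 0.28, edgeR adjusted p = 0.32, DESeq2 adjusted p = 0.020), or 0.91 without KO_4258. Snhg1 (chr19:8723496-8726442, plus strand), with 8 snoRNAs, measured 1125, 1289.6, 904 and 1337 in the KO lines and 599 and 565 in the WT lines. Its lines separated by a log2 fold change of 1.00 (SE 0.22, edgeR adjusted p = 0.29, DESeq2 adjusted p = 0.0051).

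The fitted log2 fold changes of Snhg12, Snhg5 and Snhg6 were smaller than those of Gas5 and Snhg1, a gap that was not tested. Snhg12, host of Snora16a, Snora44, Snora61 and Snord99, measured 295, 209.6, 247 and 208 in the KO lines and 132 and 138 in the WT lines. Snhg5, host of Snord50a and Snord50b, measured 675, 724, 568 and 1079.6 against 433 and 439. Snhg6, host of Snord87, measured 427, 387, 299 and 468 against 192 and 234. Their log2 fold changes were 0.83 (SE 0.33), 0.81 (SE 0.31) and 0.89 (SE 0.30), and none passed edgeR's adjustment (adjusted p = 0.48, 0.46 and 0.40) or DESeq2's.

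The processed transcript 2410006H16Rik (chr11:62602877-62604807, plus strand), which contains Snord49a, Snord49b and Snord65, had the highest mean level of all 269 genes at 192 FPKM. It measured 915, 1142, 1774 and 5687 in the KO lines and 303 and 624 in the WT lines, so line KO_4258 supplied 59.8% of the sum over KO lines. Its log2 fold change was 2.36 (SE 0.93, edgeR adjusted p = 0.47), or 1.46 without KO_4258. The processed transcript 1110038B12Rik (chr17:34950238-34952471, minus strand), host of Snord52, measured 821, 776, 872 and 1179.8 in the KO lines and 206 and 498 in the WT lines, a log2 fold change of 1.38 (SE 0.42, edgeR adjusted p = 0.37). The remaining hosts, 9330159M07Rik and 9430037G07Rik, were weak, with log2 fold changes of 1.20 (SE 0.58) and 4.39 (SE 1.80), and the latter had 2 reads over all WT libraries.

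**Figure D2:**
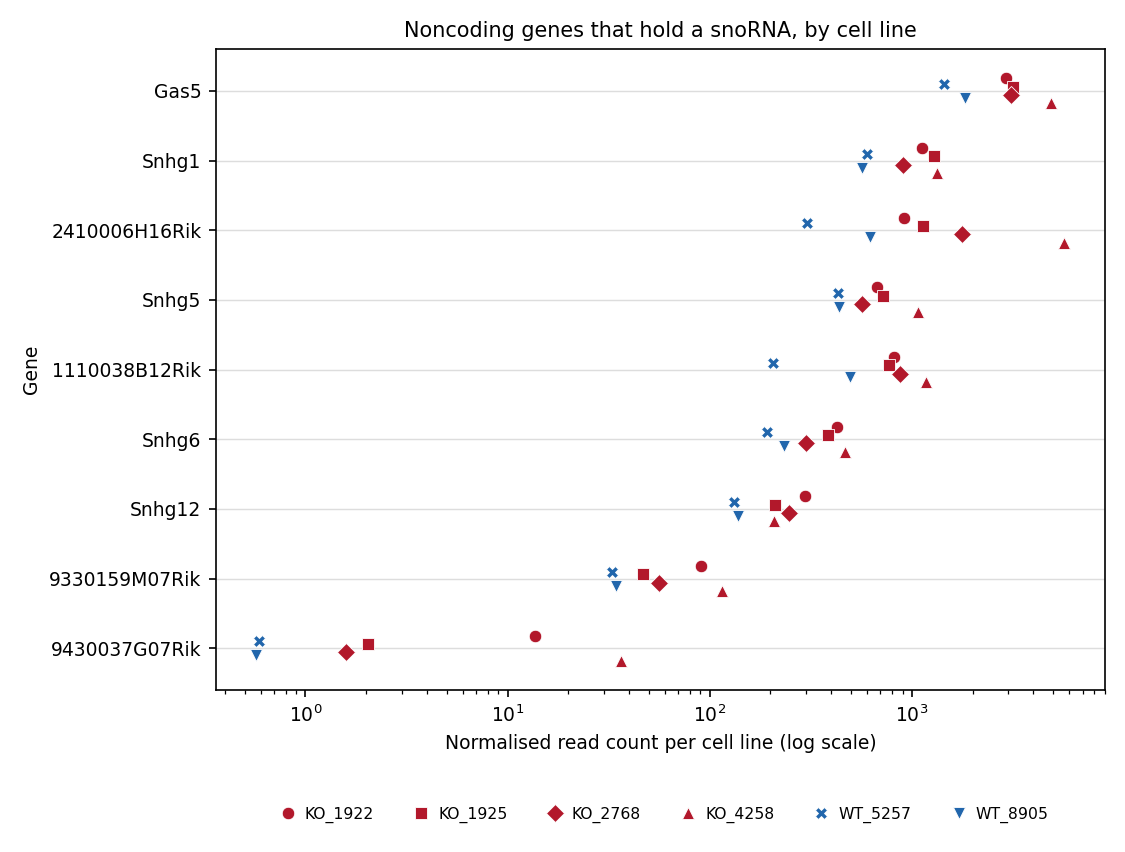
Normalised read count per cell line on a logarithmic axis for the 9 noncoding genes that contain an annotated snoRNA, with KO lines in red, WT lines in blue, and points shifted vertically for legibility. For each gene the 4 KO lines lie to the right of both WT lines, and line KO_4258 is far to the right for 2410006H16Rik (5687 against 915 to 1774 in the other KO lines).

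Transcripts of snoRNA host genes, like messenger RNAs of ribosomal proteins, commonly begin with a run of pyrimidines near the 5′ end, a sequence class through which growth signals regulate translation. The RefSeq start windows of host genes (GRCm38.p6, 40 bases, from 10 before the annotated start) are shown because all 9 hosts lay on one side. Capitals mark the longest run of C or T on the transcript strand.
Gas5, chr1:161035156-161035195, plus: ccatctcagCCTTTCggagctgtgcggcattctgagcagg
Snhg1, chr19:8723477-8723516, plus: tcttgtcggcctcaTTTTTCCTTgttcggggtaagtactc
Snhg12, chr4:132308668-132308707, plus: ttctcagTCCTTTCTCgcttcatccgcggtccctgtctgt
Snhg5, chr9:88522868-88522907, minus: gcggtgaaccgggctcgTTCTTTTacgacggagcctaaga
2410006H16Rik, chr11:62602867-62602906, plus: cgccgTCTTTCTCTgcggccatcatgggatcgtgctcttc
1110038B12Rik, chr17:34952439-34952478, minus: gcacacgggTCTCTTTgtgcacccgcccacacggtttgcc
A run of 7 or more C or T bases was found in at least 1 window of 6 of the 8 host genes with a RefSeq window (Snhg6 has none), and the other start of Gas5 has a run of 3. Counted by single window, such a run was found in 7 of 11 host windows and in 22.6% of 32851 RefSeq windows of this length. The windows of 1110038B12Rik overlap, and each holds the run. RefSeq windows were matched by symbol for 153 of the 269 genes, and a run in a window is a description of letters only.

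Genes that contain microRNA hairpins differed in both directions. On the same strand, 7 noncoding genes contained an annotated microRNA, of which 4 had all KO lines above both WT lines (40.7% of all listed genes) and 3 had all below (34.3%), under each of the 4 scalings. At an unadjusted p under 0.05 by edgeR 4 were higher and 2 lower, beside 26.3% and 21.5% of all tested genes, and DESeq2 called 2 higher and 1 lower, beside 15.1% and 8.57%. The libraries measured the host transcripts and not the mature microRNAs. For the hosts described next, 1 mature sequence of each hairpin is shown with the seed, bases 2 to 8, in capitals (RefSeq, GRCm38.p6), since the seed is the part that pairs with target messenger RNAs.
miR-100-5p, 2610203C20Rik, chr9:41531437-41531458, plus: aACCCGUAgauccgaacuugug
let-7a-2-3p, 2610203C20Rik, chr9:41536777-41536797, plus: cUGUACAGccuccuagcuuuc
miR-125b-5p, 2610203C20Rik and RP23-442M18.3, chr9:41581940-41581961, plus: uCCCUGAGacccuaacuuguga
miR-22-3p, Mir22hg, chr11:75463772-75463793, plus: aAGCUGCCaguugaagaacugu
miR-9-5p, C130071C03Rik, chr13:83738821-83738843, plus: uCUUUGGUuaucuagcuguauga
miR-30c-5p, Gm27028, chr1:23291714-23291736, plus: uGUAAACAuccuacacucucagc
No seed is shared among these sequences, and the miR-125b-1 hairpin, for which miR-125b-5p is shown, lies in a pair of overlapping genes. For let-7a-2 only the 3p sequence was at hand, so the seed of its 5p strand is not shown.

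The host of the miR-100, let-7a-2 and miR-125b-1 cluster, 2610203C20Rik (chr9:41376397-41617772), measured 902, 329, 1278 and 376 in the KO lines and 115 and 155 in the WT lines. Every KO line was above both WT lines, and KO_2768 and KO_1922 stood apart from the other KO lines. The log2 fold change was 2.42 (SE 0.70, edgeR adjusted p = 0.35, DESeq2 adjusted p = 0.012). The short sense intronic gene RP23-442M18.3 around miR-125b-1, within 2610203C20Rik and on the same strand, measured 40.4, 14.3, 46.8 and 18.9 against 3.53 and 5.15. The order of its 6 lines was that of the enclosing gene, and reads of the enclosing gene could not be told apart from its own.

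Mir22hg (chr11:75461539-75466676), host of miR-22, measured 485, 482, 486 and 667 in the KO lines and 238 and 311 in the WT lines. Lines KO_1922, KO_1925 and KO_2768 were nearly equal and KO_4258 was higher, with a log2 fold change of 0.95 (SE 0.27, edgeR adjusted p = 0.35, DESeq2 adjusted p = 0.031). The duplicates A and B of KO_4258 were 816 and 482, so only A lay above the other KO libraries (456 to 507). In the other direction, C130071C03Rik (chr13:83721381-83884194), host of miR-9-2, a microRNA of neural progenitors, measured 108, 154, 201 and 57.6 in the KO lines and 553 and 520.0 in the WT lines. The lines did not overlap, with a log2 fold change of -2.05 (SE 0.50, edgeR adjusted p = 0.31, DESeq2 adjusted p = 0.014). Gm27028, around miR-30c-2, measured 10.2, 6.63, 9.51 and 7.03 against 36.4 and 26.9, and its log2 fold change was -1.92 (SE 0.54). The weak genes A330076H08Rik (miR-344-2), with 0 reads in WT libraries, and Gm4675 (miR-6241), with a log2 fold change of -2.11 (SE 0.92), completed the group.

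**Figure D3:**
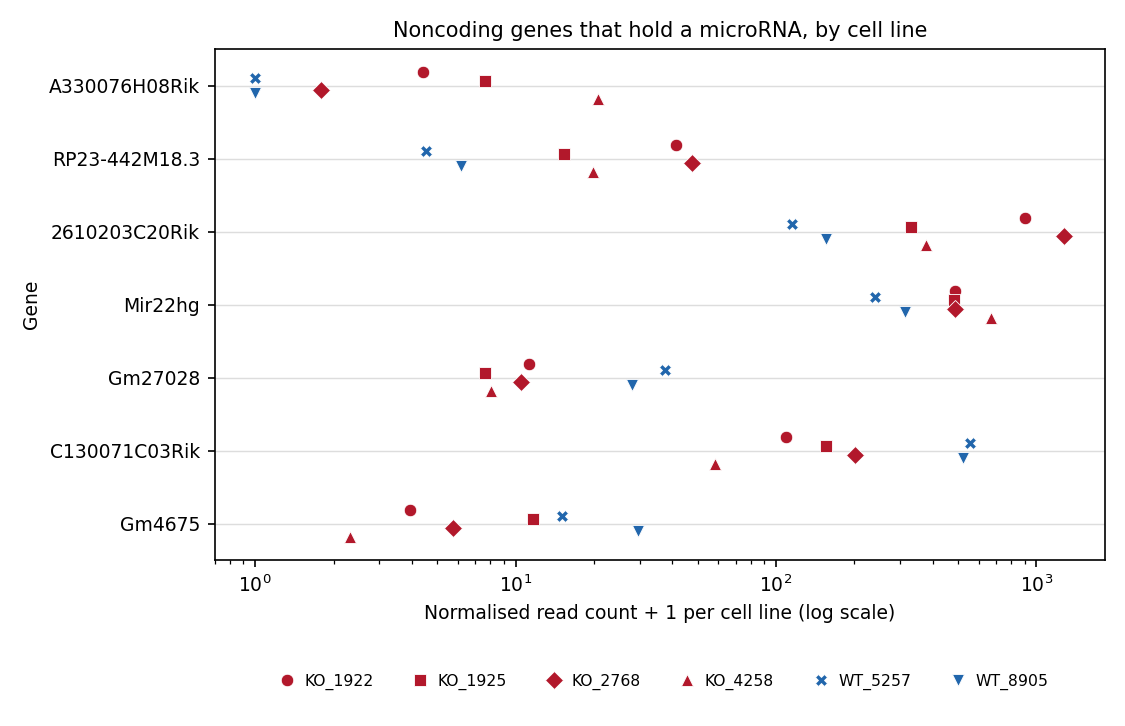
Normalised read count plus 1 per cell line on a logarithmic axis for the 7 noncoding genes that contain an annotated microRNA hairpin, with KO lines in red, WT lines in blue, and points shifted vertically for legibility. The KO lines lie right of both WT lines for the upper 4 genes and left of both for the lower 3, among them C130071C03Rik (57.6 to 201 against 520.0 and 553).

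Of 6 abundant nuclear RNAs on a list, 3 were in the table. Malat1 (chr19:5795690-5802672, minus strand), a long RNA of nuclear speckles, measured 10552, 12554, 14154 and 20366 in the KO lines and 6762 and 7553 in the WT lines. All KO lines were higher, with a log2 fold change of 1.01 (SE 0.31, edgeR adjusted p = 0.37), or 0.80 without KO_4258. Neat1 (chr19:5824708-5845478, minus strand), the scaffold of paraspeckles, measured 33286, 25627, 54619 and 55109.9 in the KO lines and 18021 and 27614 in the WT lines. Line KO_1925 lay between the WT lines, so the genotypes overlapped, and the log2 fold change was 0.89 (SE 0.43, edgeR adjusted p = 0.56). The duplicates of KO_4258 were 65365 and 42362, a gap as wide as that between some lines. Tug1, a conserved noncoding RNA named for taurine induction in the retina, also overlapped, with 2298 to 2977 in the KO lines and 2945 and 3428 in the WT lines and a log2 fold change of -0.33 (SE 0.17), or -0.21 without WT_5257.

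Other listed RNAs with known roles were few. Pvt1 (chr15:62037986-62378096), the neighbour of Myc, measured 355, 356, 361 and 296 in the KO lines and 85.2 and 183 in the WT lines. Its KO lines lay close together, and the log2 fold change was 1.35 (SE 0.41, edgeR adjusted p = 0.36, DESeq2 adjusted p = 0.030), or 0.90 without WT_5257 and 2.00 without WT_8905. Airn (chr17:12741311-12860122), the antisense RNA that silences Igf2r on the paternal chromosome and the only one of 11 imprinted genes on a list that was in the table, measured 75.9, 73.9, 76.9 and 29.9 against 209 and 183. It was lower in every KO line, with a log2 fold change of -1.61 (SE 0.50, edgeR adjusted p = 0.37). Ptgs2os, which is transcribed next to the cyclooxygenase gene Ptgs2, measured 49.2, 56.6, 17.4 and 0 in the KO lines, with 3 reads over all WT libraries. The pooled ratio was 35.6 (95% counting interval 12.0 to 174), and KO_4258 did not share the difference. The fitted log2 fold change was 5.05 (SE 2.52), or 8.84 without WT_8905, which leaves a WT line at 0 reads. Of lists of 11 growth and p53 associated genes and 11 immune associated genes, Pvt1 and Gas5, and Gas5 and Ptgs2os, were the listed members, and 0 of 15 genes of the HOX clusters were. Gm26917 (chr17:39845074-39846245), among the 5 highest by FPKM, measured 791, 2379, 580.1 and 108 in the KO lines and 65.8 and 316 in the WT lines, which overlapped. Its log2 fold change was 2.34 (SE 1.32), or 1.37 without KO_1925 and 3.87 without WT_8905. The annotation places a ribosomal RNA gene directly beside it, and reads from ribosomal RNA copies could not be told apart from its own.

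The widest fold changes belonged mostly to genes near 0 in one genotype. Against WT libraries with at most 3 reads each, 83 noncoding genes were higher in KO lines, and 16 were lower against KO libraries at that floor. The 4 WT libraries are fewer and shallower than the 7 KO libraries and meet the floor more easily, so the counts are not like for like. Among tested genes, 71 of 231 noncoding genes were at the floor in a genotype, beside 494 of all 4273. RP24-73K7.4 (chr1:88551517-88562167) had 0 reads in all 4 WT libraries, which allows up to 3 reads in each, and measured 32.6, 81.6, 15.9 and 348 in the KO lines, at least 34.4-fold higher, a bound of 12.4 without KO_4258. The lincRNA 9130409J20Rik, which GENCODE M21 annotates as the protein-coding gene Tmem238l, also had 0 WT reads and measured 54.5, 34.7, 3.96 and 25.5, at least 8.52-fold higher. E230016K23Rik (chr11:83582056-83623693) measured 257, 403, 129 and 61.1 against 1.76 and 6.87, a log2 fold change of 5.60 (SE 1.21, edgeR adjusted p = 0.28, DESeq2 adjusted p = 3.5e-06). All 4 KO lines contributed to it, and none supplied more than 47.4% of the KO sum.

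The lincRNA 5830416P10Rik (chr19:53441212-53464796), named Mirt1 in GENCODE M21, measured 930.4, 932, 36.5 and 605 in the KO lines and 3.53 and 26.3 in the WT lines. Line KO_2768 lay close to WT_8905 and the other KO lines far above both, with a log2 fold change of 5.38 (SE 1.68, edgeR adjusted p = 0.38). Gm6634 measured 159.6, 64.3, 80.8 and 225 against 0 and 8.02, a log2 fold change of 5.02 (SE 1.68). Its fitted value was 10.94 without WT_8905, which leaves a WT line at 0 reads, and 4.04 without WT_5257. Line KO_4258 alone carried 98.6% of the KO sum of 4930461G14Rik, with 1032 normalised reads against 1.46, 1.53 and 11.9 in the other KO lines. It carried 86.4% for 3300005D01Rik, with 444 against 7.79, 11.7 and 50.7. These had 2 and 1 reads over all WT libraries, and the pooled ratios were 541 (95% counting interval 149.6 to 4470) and 509 (91.1 to 20105). Of the 155 noncoding genes with a higher KO mean, 12 (7.74%) had more than 75% of the KO sum in 1 line, 8 of them in KO_4258. Over all listed genes the share was 7.75% (203 genes), and there 130 of them were carried by KO_2768 and 50 by KO_4258.

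In the lower direction, Gm16010 (chr9:97015966-97022043, plus strand) measured 9.25, 1.02, 0 and 10.1 in the KO lines and 1445 and 135 in the WT lines, a log2 fold change of -7.22 (SE 1.60, edgeR adjusted p = 0.29, DESeq2 adjusted p = 9.0e-05). Line WT_5257 stood far above WT_8905, and without it the log2 fold change was -4.69. E030013I19Rik (chr2:12300947-12311300, plus strand) measured 29.7, 15.8, 27.7 and 38.2 against 314 and 171, a log2 fold change of -3.12 (SE 0.51). Antisense gene 2810001G20Rik (chr11:64079484-64083259, plus strand) measured 44.3, 43.4, 53.9 and 72.5 against 300.2 and 271, a log2 fold change of -2.41 (SE 0.38). For both of these the edgeR adjusted p was 0.21, and they were the 2 noncoding genes that passed when adjustment ran over the listed genes alone (adjusted p = 0.044). DESeq2 gave them adjusted p = 1.1e-05 and 2.5e-07. Gm13387, Gm14133, Gm16206 and Gm16907 were also below both WT lines in every KO line, with log2 fold changes of -2.49, -2.48, -2.93 and -2.43 and edgeR adjusted p between 0.30 and 0.57. Without WT_5257 the value of Gm16206 was -1.35 and that of Gm13387 -1.66, and without KO_4258 that of Gm13387 was -3.89.

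**Figure D4:**
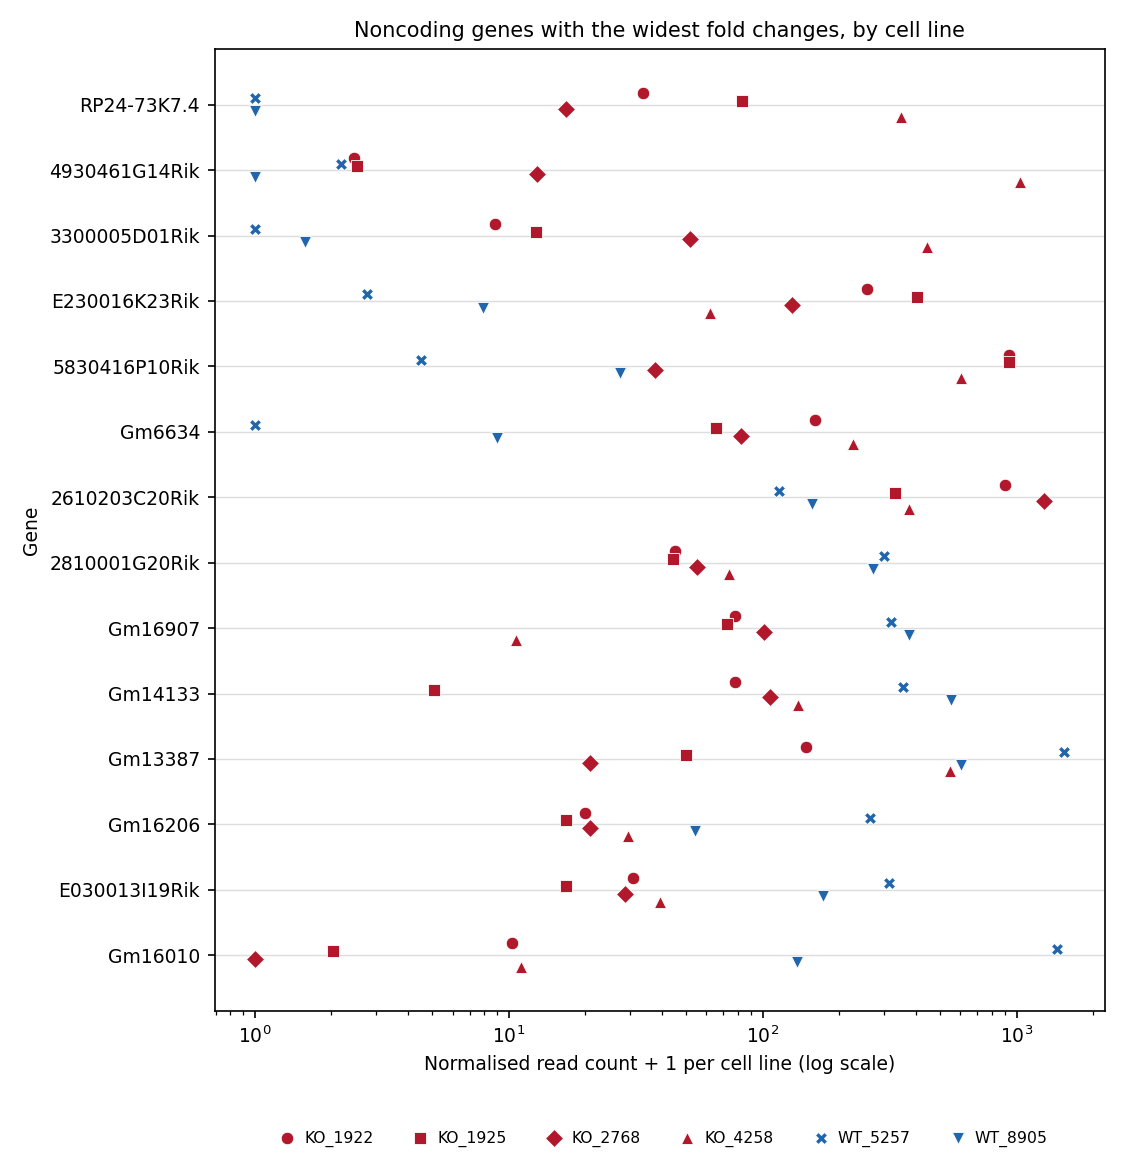
Normalised read count plus 1 per cell line on a logarithmic axis for the 7 noncoding genes with the widest fold change in each direction, among those whose lines did not overlap and whose higher genotype averaged 100 or more, with KO lines in red, WT lines in blue, and points shifted vertically. The points of 4930461G14Rik and 3300005D01Rik show KO_4258 (1032 and 444) apart from the other KO lines, and Gm13387 shows KO_4258 (548) near WT_8905 (605).

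Noncoding genes differed in the same direction as the protein-coding genes beside them. Of the 269, 123 had a listed protein-coding gene within 10 kb, in 138 pairs, and in 131 pairs (94.9%) both means differed in the same direction. Of 67 pairs overlapping on opposite strands, 66 (98.5%) had the same direction, and of 25 divergent pairs 23 (92%) had. Pairs of listed protein-coding genes within 10 kb had the same direction in 483 of 584 (82.7%), in 92 of 111 (82.9%) of those overlapping on opposite strands and in 79 of 87 (90.8%) of divergent pairs. For pairs on opposite strands with starts within 2 kb of each other the shares were close, at 35 of 37 (94.6%) with a noncoding gene and 72 of 77 (93.5%) between protein-coding genes. Within 100 kb the shares were 82.5% of 320 pairs and 75.2% of 2548. Whether the strand of the reads was used in counting is not given in the sources used here, so for overlapping genes reads of one partner could have been counted for the other, and this was not tested. Both genes of a pair had to be in the table, and pairs share the same libraries.

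Gm10863 (chr15:79166041-79227524, plus strand) starts across from Sox10, a transcription factor of neural crest and of mammary progenitors, with 1551 bases between the genes. It measured 182, 153, 258 and 182 in the KO lines and 368 and 357 in the WT lines, a log2 fold change of -0.91 (SE 0.32, edgeR adjusted p = 0.42). Sox10 measured 3744, 2866, 5155 and 4196 against 12158 and 11039, a log2 fold change of -1.54 (SE 0.25, edgeR adjusted p = 0.21). Both genes were highest among KO lines in KO_2768, and neither overlapped between genotypes. Gm20554, divergent from the homeobox gene Irx2, measured 150.4, 86.2, 298 and 113 against 262 and 455, so KO_2768 overlapped, with a log2 fold change of -1.15 (SE 0.57), or -0.69 without WT_8905, where that of Irx2 was -0.81 (SE 0.18).

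The antisense gene 2810001G20Rik starts 16 bases from Cox10, an enzyme of heme A synthesis, on the other strand. Cox10 measured 303, 323, 248 and 392 in the KO lines and 754 and 455 in the WT lines, a log2 fold change of -0.93 (SE 0.31) beside -2.41 for the noncoding partner. On chromosome 18, 1700086O06Rik and 0610009O20Rik overlap on opposite strands and had log2 fold changes of -1.20 (SE 0.39) and -0.69 (SE 0.16). BC029722, which GENCODE M21 annotates as protein coding, overlaps the 3′ part of the metalloproteinase gene Mmp24 and measured 968, 1155, 529 and 433 in the KO lines and 358 and 406 in the WT lines. Its log2 fold change was 1.01 (SE 0.47), while that of Mmp24 was 5.43 (SE 2.53), with 785 normalised reads in KO_1925 and 6.15 in KO_4258. Another listed neighbour, Eif6, lies 406 bases from BC029722 on the same strand. Eif6 measured 6255, 5887, 3695 and 2712 in the KO lines and 2231 and 2441 in the WT lines, a log2 fold change of 0.99 (SE 0.39).

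Some further pairs were chosen after their values were seen, for the size of the difference in both genes. Fendrr (chr8:121054882-121083110, minus strand), a lincRNA of lateral mesoderm, starts 1276 bases from Foxf1, a forkhead factor of mesenchyme. Fendrr measured 126, 101, 408 and 0.44 in the KO lines, with 3 reads over all WT libraries, a pooled ratio of 148 (95% counting interval 50.4 to 718). Foxf1 measured 574, 414, 715 and 0.44 in the KO lines and 1.18 and 0 in the WT lines. The pair thus had the same 3 KO lines high and KO_4258 at the level of the WT lines, as did the sum of Col1a2 and Pdgfrb, which was 0 in KO_4258.

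Plekhd1os starts 125 bases from Plekhd1 and had 1 read over all KO libraries, against 49.9 and 6.30 normalised reads in the WT lines, a pooled ratio of WT over KO of 210.3 (95% counting interval 36.9 to 8391). Plekhd1 measured 1.46, 0.51, 6.34 and 0 against 1094 and 227. 5730420D15Rik, divergent from Socs2, a suppressor of cytokine signalling, measured 3.89, 2.04, 0.79 and 1.76 against 43.5 and 21.8, a log2 fold change of -3.88 (SE 0.77), where that of Socs2 was -1.99 (SE 0.40). Gm17501, divergent from Cyr61, a matricellular target of YAP, had a log2 fold change of 2.52 (SE 0.85) beside 2.48 (SE 0.83). RP24-240G4.2, which overlaps the start of the nuclear receptor gene Nr2f2 on the other strand, had 4.34 (SE 1.46) beside 2.74 (SE 0.56).

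Members of 7 pairs differed in opposite directions. Gm14022 starts 256 bases from the tubulin tyrosine ligase gene Ttl, with a log2 fold change of -1.24 where that of Ttl was 0.52 (SE 0.28). Gm10634 overlaps Mthfsl on the other strand, with 4.78 where that of Mthfsl was -1.40 (SE 0.40). The other five pairs were Gm17281 with Arfgap2, Gm20109 with Fkbp5, Gm26634 with Lgals2, 9330020H09Rik with 4930415O20Rik and RP24-176P22.1 with Phlpp1.

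**Figure D5:**
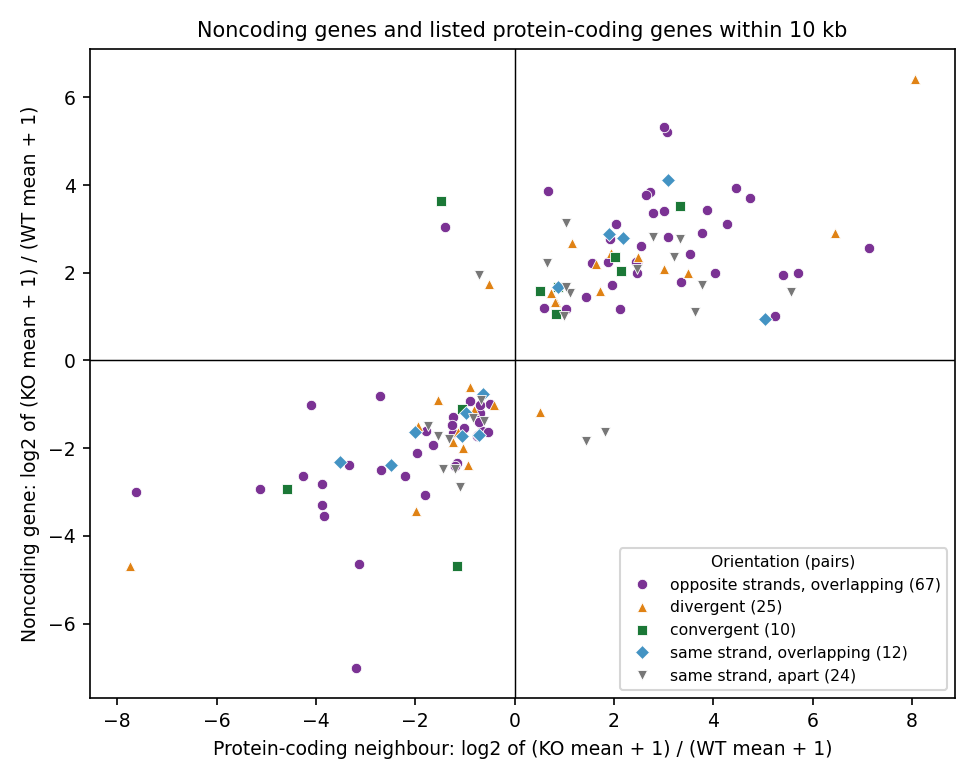
Each point is 1 of 138 pairs of a noncoding gene and a listed protein-coding gene within 10 kb, with the log2 ratio of KO to WT means (1 added to each) of the protein-coding gene on the horizontal axis and of the noncoding gene on the vertical axis, and symbols for the orientation. Of the pairs, 131 fall in the lower left or upper right quadrant, and 7 have opposite signs.

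By chromosome, more noncoding genes had a higher than a lower KO mean, or fewer, as the listed protein-coding genes of the same chromosome did, on 11 of 19 chromosomes, while on 7 the balance was opposite and 1 was even. On chromosome 12, where 193 of 229 protein-coding genes had a lower KO mean and 152 (66.4%) had every KO line below both WT lines, 11 of 12 noncoding genes were lower, all 11 with every KO line below, beside 34.3% of all listed genes. On chromosome 1, 23 of 28 noncoding genes had a higher KO mean, beside 200 of 257 protein-coding genes. Among the 7 opposite chromosomes, chromosome 9 had 15 of 18 noncoding and 92 of 231 protein-coding genes higher, and chromosome 3 had 3 of 12 and 98 of 184. These chromosomes were chosen after their values were seen.

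The 4 T-cell receptor segments on chromosome 14 were higher in KO means, and each had at most 5 reads over all WT libraries. Trav13-2 measured 146, 119, 4.76 and 0 in the KO lines. Trdv4 measured 18.01, 27.0, 0 and 134, with 0 WT reads, at least 12.8-fold higher by its KO mean, a bound of 4.31 without KO_4258. Trac, the constant segment, measured 13.1, 94.3, 0.79 and 23.7, and Traj32 measured 9.25, 26.0, 0 and 5.71. A different KO line was highest for Trav13-2 (KO_1922), Trac (KO_1925) and Trdv4 (KO_4258), and KO_2768 was at or near 0 for all 4. Of 5 leukocyte markers, 0 were in the table and were not analysed here. DESeq2 called Trdv4 (adjusted p = 0.046), where it called 15.1% of all tested genes as higher. By edgeR 0 of the 4 were called, and 2 had an unadjusted p under 0.05, beside 26.3% of all tested genes as higher.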

How the data were processed

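RNA-Seq libraries of 6 tumor-derived mouse lines were compared by genotype. The authors aligned reads to mm10 with STAR and deposited HTSeq read counts per gene. They also deposited a normalised signal (each count over the size factor of its library) and FPKM from gene length and library total. The table's columns for the authors' own comparison, with log2 fold changes and their raw and adjusted p-values, were not used. Whether counting used strand is not given in the sources used here, so antisense, overlapping and intronic genes are uncertain. The submitters' processing notes name Trimmomatic, STAR, HTSeq, edgeR and limma.

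Counts were summed by line, the replicate, and tested with edgeR 4.0.16 (quasi-likelihood, two-sided, filterByExpr, the authors' size factors as offsets) in R 4.3.3. Benjamini-Hochberg adjustment counted 20000 tests at a threshold of 0.05, since only selected genes were deposited. Titles mark the duplicates of a line as biological replicates, without saying whether they were separate cultures. Normalised read counts are summed reads over summed size factors, with SE from the fit. DESeq2 1.42.0, other scalings, sample units, a replicate block, filters and left-out lines were alternatives. A floor of 3 reads per library bounds folds against 0 and covers counting error only, as do exact binomial intervals (95%) for ratios with 1 to 3 reads in a genotype. Positions, snoRNAs and microRNAs came from GENCODE M21 (GRCm38), which held 260 of the 269 gene IDs, 209 with identical coordinates, and sequences from RefSeq tables (GRCm38.p6). Code was tested on simulated data.

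Genes named were those on lists of known noncoding RNAs, the 7 widest fold changes in each direction with lines that did not overlap and a mean of 100 or more in the higher genotype, the 5 highest by FPKM, genes at 0 reads in one genotype and a mean of 20 or more in the other, the 5 pairs of highest FPKM starting within 2 kb of or overlapping a gene on the other strand, and the highest of each type with 5 or more genes, 35 in all. Members holding small RNAs and further pairs were added. The members and lists were chosen with earlier results of these data known.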

Additional observations from a re-analysis of the deposited data

Results flagged for a closer look

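Among the KO lines, 1 line stood far from the other 3 in 6 of 42 genes examined. This means that its gap to the nearest line, as a share of the range over the 4 lines, exceeded Dixon's 95% critical value. For normally distributed values, chance passes this limit in about 1 in 20 groups. Here the values were read counts, and 4930461G14Rik and 3300005D01Rik were examined for their wide fold changes. The 6 are therefore not to be set against that rate. In all 6 the line was KO_4258. It was highest for Gas5 with 4888 normalised reads (gap 0.875 of the range), for Mir22hg with 667 (0.982), for 3300005D01Rik with 444 (0.902) and for 4930461G14Rik with 1032 (0.99). It was lowest for Pvt1 with 296 (0.899), which was still above both WT lines, and for Airn with 29.9 (0.938), which lay further below the WT lines than the other KO lines. For Mir22hg the duplicates A and B of KO_4258 were 816 and 482, so only A stood apart from the other KO libraries (456 to 507). For Airn these duplicates were 39.6 and 17.7, both below the other KO libraries (66.8 to 81.5). No cause was tested.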

How the results depend on the processing

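Other scalings changed no sign among the 227 noncoding genes compared. The median over all tested genes moved by -0.17 under TMM and -0.22 under median-of-ratios factors, and unadjusted p under 0.05 then gave 786 higher and 1452 lower genes (762 and 1522) in place of 1122 and 920. The median log2 fold change of the noncoding genes became 0.84 and 0.79, and ranged from 0.77 (without KO_4258) to 1.43 (without WT_8905) with 1 line left out. Calls by edgeR were 0 with each line left out, each scaling, no filter and 1 library per line. With every library as a sample, which counts duplicates as independent, 1384 higher and 1195 lower listed genes passed (54 and 55 noncoding), and noncoding genes with all KO libraries above or below all WT libraries numbered 61 and 83, against 103 and 103 by line (88 and 108 with median-of-ratios factors). With the duplicate letter as a replicate block the counts were 1081 and 980 (40 and 42 noncoding). Differences between duplicates correlated between lines at -0.0453 to 0.0299, so no difference common to a letter was seen across the tested genes as a whole. A batch in part of the genes was not tested. DESeq2 gave 644 and 366 (22 and 13), and adjustment over the listed genes alone 57 and 82 (0 and 2). Neighbours within 100 kb had the same direction in 82.5% of pairs. Over 521 alternative fits of the 35 named genes, 450 kept their side of the threshold, 71 newly passed it and 0 reversed. With 1 line left out, the log2 fold change of 9 of the 35 moved by over 1.5 times. Only 2 WT lines enter each comparison, and 38 of the 269 genes had too few reads to test.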
